A study of Mus musculus with 10 samples.

Results

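Hox genes encode homeodomain transcription factors that lie in 4 clusters (HoxA to HoxD) and give cells their position along the head-to-tail axis. The members described here were every array gene whose symbol is Hox, a cluster letter from a to d and a number, each taken from the 1-symbol probe set with the highest mean. Such a probe set was found for 37 Hox genes (10 of HoxA and 9 each of HoxB, HoxC and HoxD), out of 19938 genes analysed. None of the 37 had more than 1 such probe set. Hoxb8 was read only by a probe set shared with Hoxb7, at 5.93 to 6.43 on all 10 arrays (log2 intensity).

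The numbering follows the order of the genes along each cluster. Genes with low numbers are expressed in the hindbrain and neck, those with middle numbers in the neck and thorax, and those with high numbers in the lumbar region, tail, distal limb and genitalia. During development the clusters open in that order, under retinoic acid, Wnt and FGF signals, and Polycomb complexes keep them silent in embryonic stem cells and in the forebrain, which normally lacks Hox expression. Below, numbers 1 to 3 are called anterior, 4 to 8 central and 9 to 13 posterior.

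The study followed mouse embryonic stem cells into neural stem cells in culture, with RNA on Affymetrix whole-transcript arrays and 2 biological replicates, 1 array each, in each of 5 groups. The mESC group is the R1 line, of 129/Sv origin, kept with 1000 U/ml Lif and 15% serum over mitomycin-treated embryonic fibroblasts. The p-NSC_L group are primary spheres that R1 cells formed in serum-free N2 medium with Lif at 1000 U/ml, and the p-NSC_LF group are their next passage with Lif at 1000 U/ml, FGF at 10 ng/ml and heparin at 2 μg/ml. The d-NSC group was made from primitive neural stem cells in N2 and B27 with EGF and FGF at 20 ng/ml each and heparin at 2 μg/ml, without Lif. The CNS-NSC group was cultured from the frontal lobes of wild-type ICR embryos at E11.5, in N2 with EGF and FGF at 20 ng/ml each and heparin at 2 μg/ml. By the labels all ES-derived groups come from a single line, and CNS-NSC differ from them in strain as well as origin; the level of Hprt, given below, sets mESC apart from the groups labelled as derived from it. The labels do not say how many embryos went into a CNS-NSC sample.

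Promoter sequence from RefSeq (GRCm38.p6, 250 bases before to 50 after each gene's start) was found for 21 of the 37 members, in 23 entries. Those of Hoxa2 and Hoxb1 are shown, both highest in d-NSC and both holding a match to the motif marked below. Hoxa3, also highest in d-NSC, had an entry without this match, so the sequences shown do not stand for all such genes. Genes for the Pbx and Meis proteins, which bind DNA together with Hox proteins, were also measured. Capitals mark the match to TGATNNAT, a joint Pbx-Hox motif searched on both strands. Hoxa2 lies on the minus strand at chr6:52164782-52165081, with the match on the other strand of the printed sequence, 111 bases before the start. Hoxb1 lies on the plus strand at chr11:96365508-96365807, with the match 162 bases before the start.

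Hoxa2: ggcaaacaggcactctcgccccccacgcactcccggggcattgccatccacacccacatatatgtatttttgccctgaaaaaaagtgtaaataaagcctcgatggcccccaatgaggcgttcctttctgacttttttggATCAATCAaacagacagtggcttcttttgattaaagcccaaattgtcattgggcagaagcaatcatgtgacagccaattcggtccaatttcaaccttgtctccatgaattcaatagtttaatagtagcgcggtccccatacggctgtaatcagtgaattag
Hoxb1: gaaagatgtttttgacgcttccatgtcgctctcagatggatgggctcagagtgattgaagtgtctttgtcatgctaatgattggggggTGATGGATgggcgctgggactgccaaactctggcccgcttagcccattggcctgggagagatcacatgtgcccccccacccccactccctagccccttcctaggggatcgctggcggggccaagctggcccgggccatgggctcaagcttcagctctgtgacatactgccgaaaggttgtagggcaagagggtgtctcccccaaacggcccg

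The motif TGATNNAT was present in 3 of the 23 member promoters (Hoxa2, Hoxb1 and Hoxd11) and in 8.85% of all 32851 promoters of the same length. The Meis and Pknox motif TGACAG was in 2 of the 23 (Hoxa2 and Hoxa3) and in 19.2% of all. Member promoters were rich in CpG: their median was 15 CpG per 300 bases against 7 for all promoters, and 19 of the 23 were over 7. A match describes the letters in these windows only. No promoter entry was found for Hoxb2, Hoxc8, Hoxc12 and Hoxc13, among others.

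All values below are deposited log2 intensities, where 1 unit is 2-fold, and differences are ± SE with n = 2 arrays per group. The words rise and fall are kept for genes to which limma, fitted to all 10 arrays, gave a Benjamini-Hochberg adjusted p below 0.05 over all genes. The replicates were least alike in p-NSC_L and CNS-NSC, with 167 and 277 genes 2-fold apart, against 1 to 30 in the other groups. The neural stem list (Sox1, Nes, Pax6, Fabp7, Msi1 and Sox2) was above background at all 6 genes in d-NSC and CNS-NSC and at 4 or 5 of 6 in the other groups. The pluripotency list was above it at all 6 genes in every group but CNS-NSC, where Pou5f1, Zfp42 and Tdgf1 were not, and all 6 genes fell from p-NSC_LF to d-NSC. Hprt, the purine salvage enzyme, read 6.76 and 6.99 in mESC and 10.45 to 11.60 on the other 8 arrays, although the labels derive the p-NSC and d-NSC groups from the same line; its bearing on the comparisons with mESC was not tested.

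Most Hox genes read within the range of olfactory receptor genes, which these cells should not express, though in its upper part: the lowest Hox value on any array was 5.69, above the receptor medians of 5.32 to 5.61. Background on each array was set as the 95th percentile of 1027 olfactory receptor genes (6.90 to 7.19), which are a nasal receptor family, and a Hox gene counted as above it in a group when both arrays passed. By this rule 10 of the 37 Hox genes were above background in mESC, 9 in p-NSC_L, 11 in p-NSC_LF, 11 in d-NSC and 7 in CNS-NSC. Over all genes the shares were 67.5%, 66.1%, 67.8%, 69.1% and 66.7%. A total of 22 Hox genes passed in no group, 20 of them on no array. In all, 6 passed in every group (Hoxa4, Hoxa7, Hoxb1, Hoxb3, Hoxb9 and Hoxd11) and 9 in some groups (Hoxa2, Hoxb2, Hoxc8, Hoxc9, Hoxc12, Hoxc13, Hoxd3, Hoxd9 and Hoxd13). The counts depend on the reference: with the 99th percentile they were 3 to 6, and with the 95th percentile of 163 vomeronasal receptor genes they were 24 to 34. Each probe set has its own background, so passing shows a bright probe set more surely than it shows a transcribed gene.

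**Figure D1:**
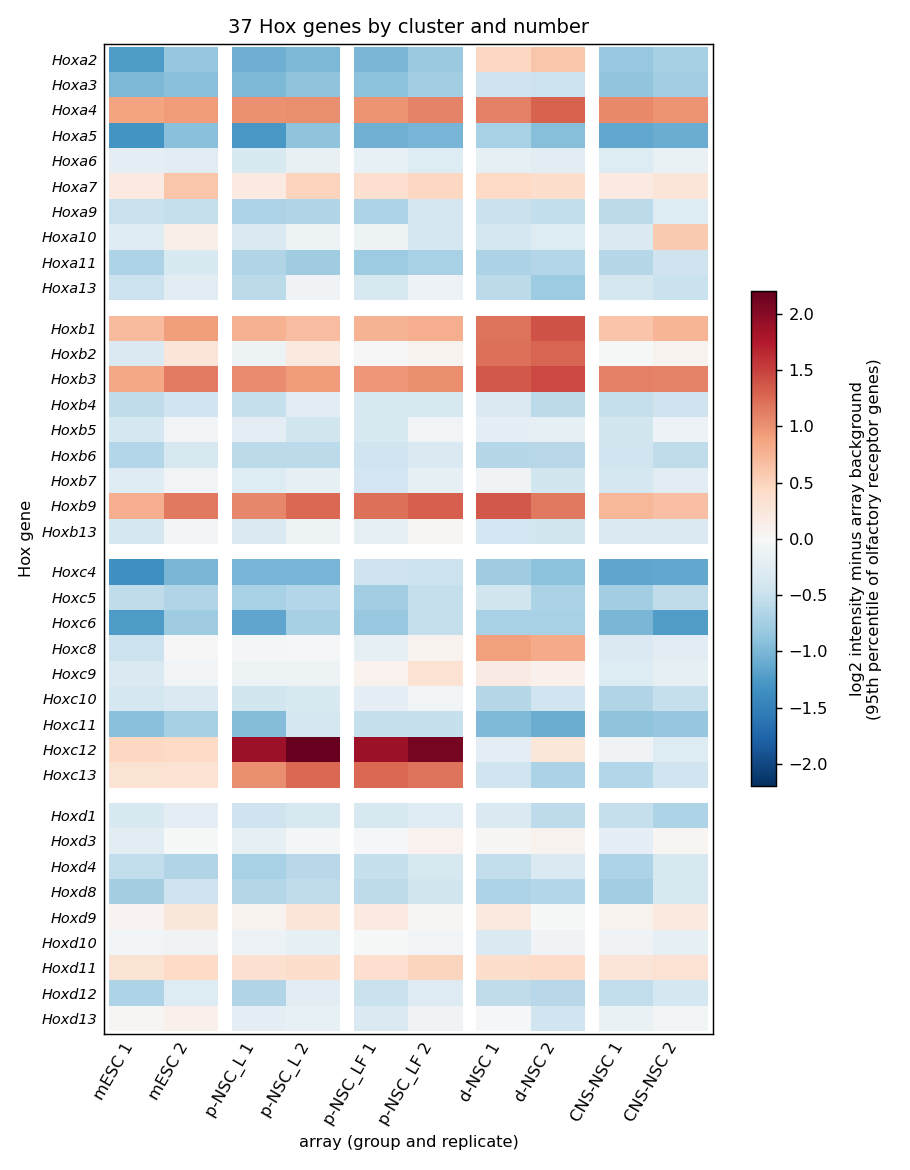
Each row is 1 of the 37 Hox genes, each column 1 of the 10 arrays, and colour gives log2 intensity minus the array's background (95th percentile of the olfactory receptor genes), red above and blue below. Hoxc12 and Hoxc13 are reddest in p-NSC_L and p-NSC_LF, Hoxa2, Hoxb2 and Hoxc8 turn clearly red in d-NSC, and the HoxD rows change little.

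Another measure, added after the values were seen, asked whether a gene differed among the groups at all: the span between its highest and lowest group mean. The median Hox span was 0.34, that of the olfactory receptor genes 0.27 and that of all genes 0.59. Over the 95th percentile of the receptor spans, 0.58, lay 7 Hox genes (Hoxa2, Hoxb1, Hoxb2, Hoxc4, Hoxc8, Hoxc12 and Hoxc13), against 50.4% of all genes. Of the 6 Hox genes above background in every group, 5 had a span under it: Hoxa4, Hoxa7, Hoxb3, Hoxb9 and Hoxd11. Both measures were met by 6 genes, Hoxa2, Hoxb1 and Hoxb2 among the anterior ones, Hoxc8 among the central and Hoxc12 and Hoxc13 among the posterior.

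The genes that passed in no group were 2 anterior, 11 central and 9 posterior ones. The 2 anterior genes, Hoxa3 and Hoxd1, read 6.01 to 6.75. The 11 central genes (Hoxa5, Hoxa6, Hoxb4, Hoxb5, Hoxb6, Hoxb7, Hoxc4, Hoxc5, Hoxc6, Hoxd4 and Hoxd8) read 5.69 to 6.96. The 9 posterior genes (Hoxa9, Hoxa10, Hoxa11, Hoxa13, Hoxb13, Hoxc10, Hoxc11, Hoxd10 and Hoxd12) read 5.94 to 7.63, where the top value is Hoxa10 on a single CNS-NSC array. Hoxa10, a lumbar patterning gene, read 6.76 and 7.63 in CNS-NSC and 6.63 to 7.08 on the other 8 arrays. Its 2 CNS-NSC arrays lay 0.87 apart, the widest replicate gap of any Hox gene, and the low one was within the range of the other groups.

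The first comparison, p-NSC_L against mESC, set spheres in serum-free medium without feeders against ES cells. Serum, feeders and growth as spheres differed together and cannot be told apart. Hprt also set the mESC arrays apart, and its bearing on this comparison was not tested. Hoxc12 and Hoxc13, the 2 genes at the posterior end of HoxC, rose, and 35 Hox genes did not pass the test. Hoxc12 read 7.48 and 7.39 in mESC and 9.07 and 9.25 in p-NSC_L, a rise of 1.73 ± 0.16 or 3.32-fold (limma adjusted p = 0.00017). Hoxc13, which is required for normal hair and nails, read 7.35 and 7.28 in mESC and 8.22 and 8.17 in p-NSC_L, a rise of 0.88 ± 0.12 or 1.84-fold (limma adjusted p = 0.0013). For both genes the p-NSC_L arrays lay clear of the mESC arrays, and all 4 arrays were above background. The third gene in from that end, Hoxc11, read 6.10 and 6.21 in mESC and 6.25 and 6.51 in p-NSC_L, below background throughout.

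Among all genes 13.4% changed in p-NSC_L against mESC, 6.56% upwards and 6.79% downwards, and the Hox share was 2 of 37 (5.41%). The median difference was 0.07 over the Hox genes and 0.02 over all genes. The Hox genes that did not pass differed by at most 0.26, and no member fell, with only the 2 named genes at an unadjusted p under 0.05. Hoxc12 and Hoxc13 passed under each of the alternatives run that tested them, with adjusted p up to 0.012 and 0.018. The fibroblast markers, which bear on feeder cells, had a summed log2 level of 11.14 to 11.17 in mESC and 11.36 to 11.79 in p-NSC_L. Of the 11 measured, 6 were above background in mESC and 8 in p-NSC_L, where Lum and Fap were on neither array. Of the 11, 4 rose and 1 fell, and 2 of 6 endoderm markers rose too; their part in the result was not tested. Without mESC replicate 1 these counts were 1, 0 and 0, without mESC replicate 2 the endoderm count was 1 and none of the 11 fell, without p-NSC_L replicate 1 none of them fell, and without p-NSC_L replicate 2 there were 2 rises among them.

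**Figure D2:**
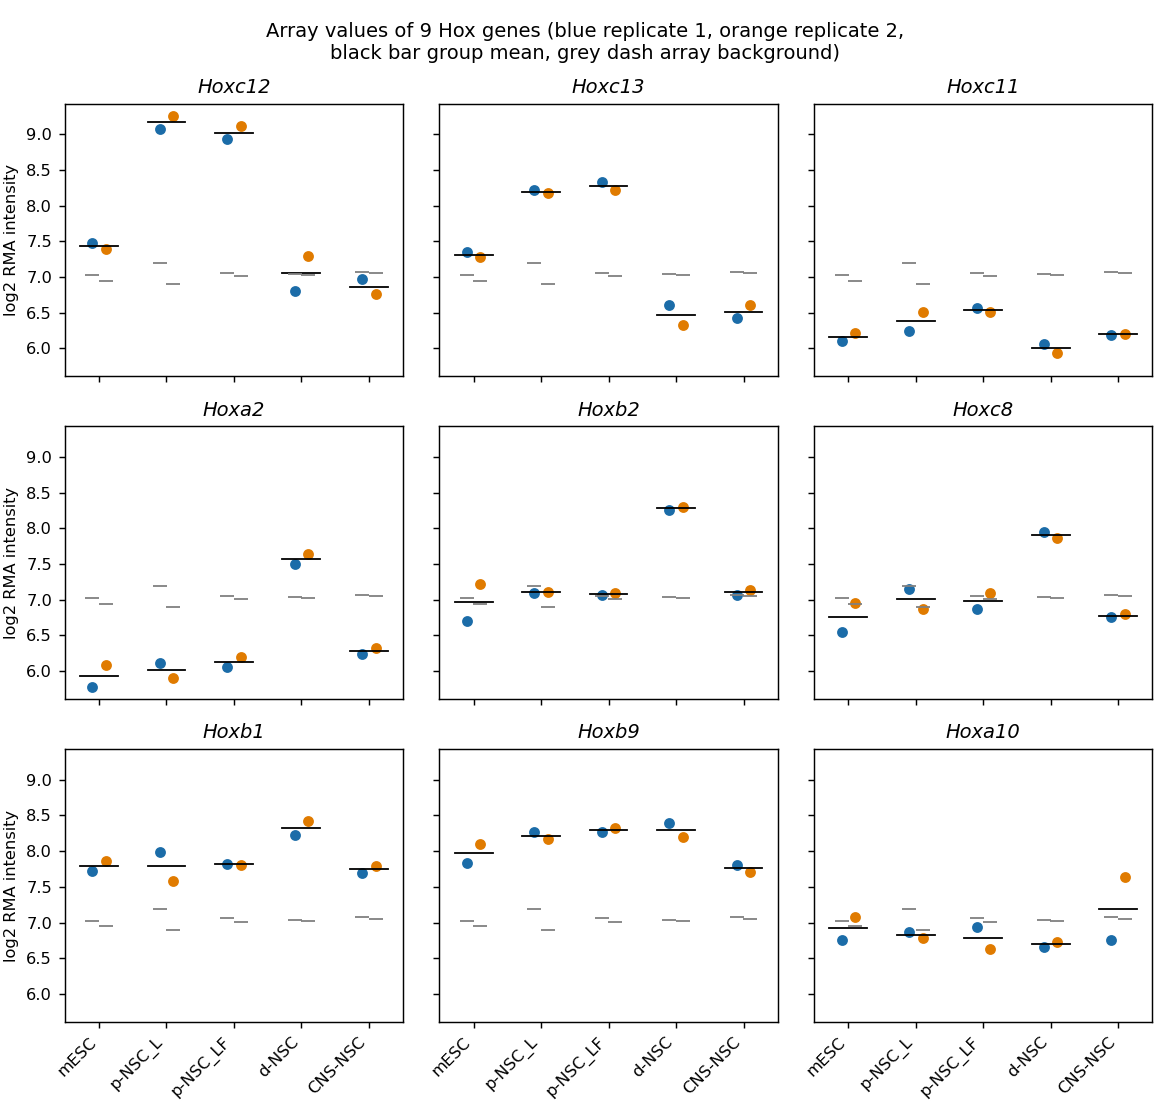
Log2 intensity of 9 Hox genes on each array (blue replicate 1, orange replicate 2, black bar the group mean, grey dash the array's background). Hoxc12 and Hoxc13 are high in both p-NSC groups and lowest in d-NSC and CNS-NSC, while Hoxa2, Hoxb2 and Hoxc8 stand apart in d-NSC.

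Passage of the primitive cells with FGF, the p-NSC_LF against p-NSC_L comparison, gave no Hox call, where 1.78% of all genes changed, 1.1% upwards and 0.677% downwards. By limma 2 of the 37 had an unadjusted p under 0.05, Hoxc4 and Hoxc9, and without variance moderation the adjusted count was also 0. Hoxc4, a neck-level gene, read 6.18 and 5.89 in p-NSC_L and 6.61 and 6.54 in p-NSC_LF, all below background, a difference of 0.54 ± 0.13 (limma adjusted p = 0.074). It passed with quantile normalization and without p-NSC_L replicate 1, which gave a count of 1. Hoxc9, a thoracic gene, read 7.09 and 6.79 in p-NSC_L and 7.15 and 7.35 in p-NSC_LF, so that it crossed the background level on both arrays without passing the test (difference 0.31 ± 0.13, limma adjusted p = 0.32). Hoxc12 and Hoxc13 kept their raised level in p-NSC_LF, at 8.94 and 9.11 and at 8.33 and 8.21. For Hoxc12 the difference from p-NSC_L was -0.14 with a 95% interval from -0.50 to 0.22.

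In d-NSC against p-NSC_LF, Hox genes differed in both directions. Between these groups Lif was withdrawn, EGF was added and FGF went from 10 to 20 ng/ml. B27 is named for d-NSC only. These changes came together and cannot be told apart. Among 37 members 6 rose and 7 fell, a share of 35.1% against 38.6% of all genes (19.3% in each direction), which is near the background. The risers were Hoxa2, Hoxa3, Hoxb1, Hoxb2, Hoxb3 and Hoxc8, 5 of them anterior. The genes that fell were Hoxa13, Hoxb13, Hoxc4, Hoxc10, Hoxc11, Hoxc12 and Hoxc13, 6 of them posterior. Of the 7 anterior members measured, 5 rose and none fell, with Hoxd1 and Hoxd3 not passing. Of the 16 posterior members none rose and 6 fell, and of the 14 central members 1 rose and 1 fell. The median difference was -0.02 over the Hox genes and -0.01 over all genes.

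**Figure D3:**
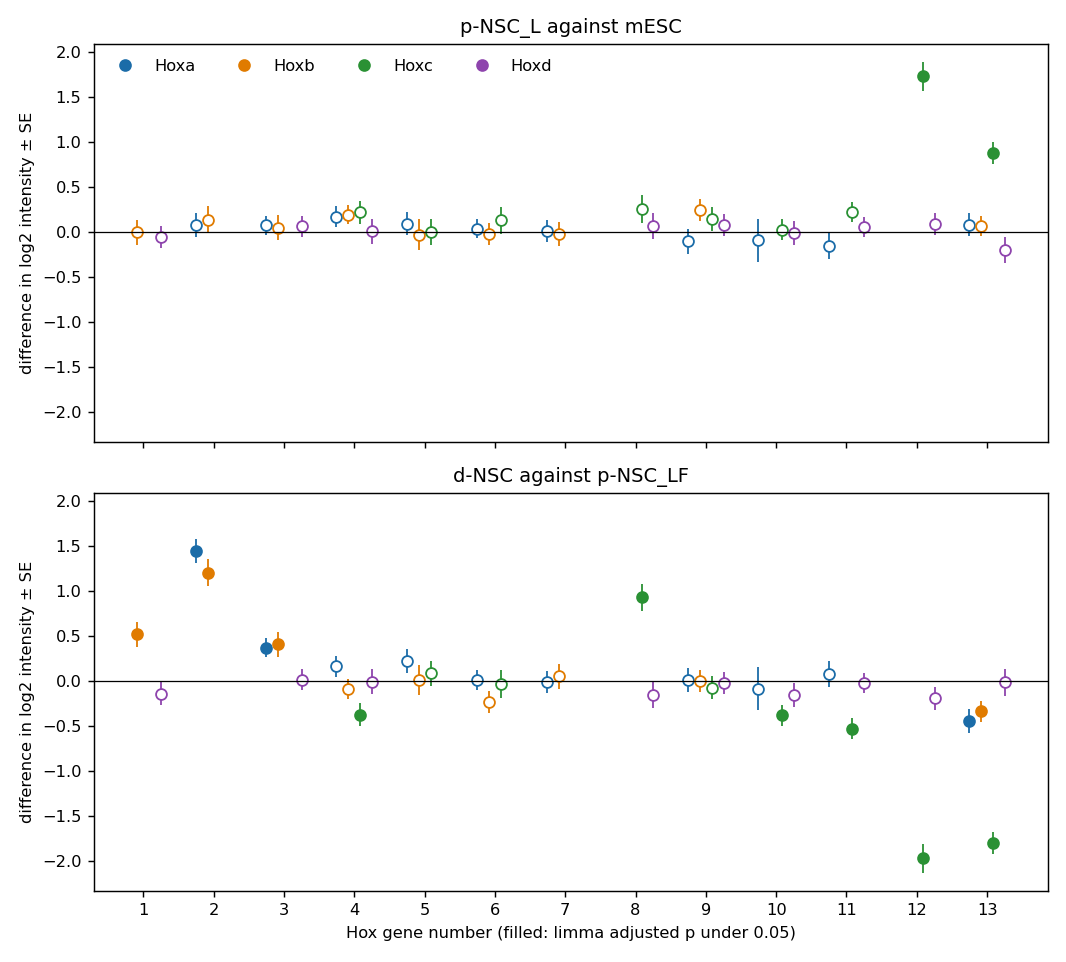
Difference in log2 intensity ± SE (vertical) by Hox gene number (horizontal, colours give the cluster), above for p-NSC_L against mESC and below for d-NSC against p-NSC_LF, with filled points at a limma adjusted p under 0.05. In the upper panel Hoxc12 and Hoxc13 alone are filled, and in the lower panel the filled points above 0 are numbers 1 to 3 and Hoxc8, and those below 0 are Hoxc4 and numbers 10 to 13.

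Hoxa2, which patterns the hindbrain and the jaw-forming arches, read 6.06 and 6.20 in p-NSC_LF and 7.51 and 7.64 in d-NSC. Its rise was 1.44 ± 0.13 (limma adjusted p = 1.4e-05), from below background to above it on both arrays. With the lower group set at the background level, the fold was at least 1.45. Hoxa2 stayed between 5.78 and 6.32 on the 8 arrays outside d-NSC, so d-NSC overlapped no other group. Hoxb2, a hindbrain gene, read 7.07 and 7.09 in p-NSC_LF and 8.26 and 8.30 in d-NSC, a rise of 1.20 ± 0.15 or 2.30-fold (limma adjusted p = 0.00012). Outside d-NSC it lay at 6.70 to 7.23, close to the background. Hoxc8, a gene of the thorax and the limb-level spinal cord, read 6.87 and 7.09 in p-NSC_LF and 7.95 and 7.87 in d-NSC, a rise of 0.93 ± 0.15 (limma adjusted p = 0.00077), from a level above background on 1 of 2 arrays. Like Hoxa2, it was above background on both arrays in d-NSC alone, whereas Hoxb2 was so in p-NSC_LF as well.

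The other 3 risers moved by less. Hoxb1, known for maintaining its own expression in a hindbrain segment together with Pbx proteins, read 7.82 and 7.81 in p-NSC_LF and 8.23 and 8.43 in d-NSC, a rise of 0.52 ± 0.14 (limma adjusted p = 0.014). Hoxb3 and Hoxa3, genes of the hindbrain and neck, rose by 0.40 ± 0.14 and 0.37 ± 0.10 (limma adjusted p = 0.039 and 0.017). Hoxb3 was above background everywhere, reading 8.04 and 8.03 in p-NSC_LF and 8.40 and 8.48 in d-NSC. Hoxa3 stayed below it at 6.15 and 6.24 against 6.58 and 6.55. The RefSeq models of Hoxa3 overlap those of Hoxa4, Hoxa5 and Hoxa6, and that of Hoxb3 overlaps Hoxb4, so the signal of a shared stretch cannot be given to a single gene.

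At the posterior end, Hoxc12 dropped to 6.81 and 7.29 in d-NSC from 8.94 and 9.11 in p-NSC_LF, a difference of -1.97 ± 0.16 (limma adjusted p = 5.9e-06). Hoxc13 dropped to 6.60 and 6.33 from 8.33 and 8.21, a difference of -1.80 ± 0.12 (limma adjusted p = 1.7e-06), or at least 2.36-fold with d-NSC set at the background level. Hoxc13 was then below background on both arrays and Hoxc12 on 1 of 2. Hoxc11, of the same posterior stretch, fell by 0.54 ± 0.12 from 6.56 and 6.51 to 6.06 and 5.94 (limma adjusted p = 0.004), all under background. The other 4 that fell, Hoxa13 (0.45), Hoxc10 (0.39), Hoxc4 (0.38) and Hoxb13 (0.34), were below background in every group, with limma adjusted p of 0.018 to 0.042. A difference to, from or between levels below background is one of intensity, and its size as a fold of expression is not measured.

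Hoxa2, Hoxb2, Hoxc8, Hoxc11, Hoxc12 and Hoxc13 passed in d-NSC against p-NSC_LF under every alternative that tested them. With no variance moderation Hoxa13, Hoxb1, Hoxb3, Hoxb13 and Hoxc4 failed. Hoxa3, Hoxb3, Hoxb13 and Hoxc4 failed without any single one of the 4 arrays compared (highest adjusted p over the alternatives 0.12, 0.18, 0.27 and 0.22), and Hoxb3 also with quantile normalization. Hoxb1 failed without either p-NSC_LF array or d-NSC replicate 2 (up to 0.12), Hoxc10 without either p-NSC_LF array or d-NSC replicate 1 (up to 0.17), and Hoxa13 without p-NSC_LF replicate 2 or d-NSC replicate 2 (up to 0.15). The count of 13 was 7 and 6 without p-NSC_LF replicates 1 and 2, 8 and 7 without d-NSC replicates 1 and 2, and 8 with no variance moderation.

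Markers of other cell types moved with this step, in which 19.3% of all genes rose and 19.3% fell. Of 11 fibroblast markers 8 rose and 1 fell, with a summed log2 level of 11.04 to 11.05 in p-NSC_LF and 11.97 to 12.03 in d-NSC, and Lum and Fap were not above background in either; without d-NSC replicate 2 none fell. Of 6 endoderm markers 4 rose, with a summed level of 10.44 to 10.45 in p-NSC_LF and 11.83 to 11.86 in d-NSC, where Afp was not above background. Of 5 mesoderm markers 2 rose, with a summed level of 9.45 to 9.58 in p-NSC_LF and 10.12 to 10.23 in d-NSC, where Mesp1 and Meox1 were not above background. Of 6 neuron markers 5 rose and 1 fell, with a summed level of 12.75 to 12.76 in p-NSC_LF and 12.60 to 12.62 in d-NSC. Their part in the Hox differences was not tested, and in cultured populations fewer cells of a type and less RNA per cell cannot be told apart.

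Set against the ES cells themselves, d-NSC had 9 Hox genes higher and 1 lower, a share of 27.0% against 40.5% of all genes (20.7% higher and 19.9% lower). With quantile normalization the split was 6 higher and 3 lower: Hoxa4, Hoxb3 and Hoxc9 no longer passed, and Hoxa13 and Hoxc12 fell. This comparison shares its d-NSC arrays with the one above. Its mESC arrays are those that Hprt set apart, and the bearing of this was not tested. Hoxa2 was higher by 1.64 ± 0.13, Hoxb2 by 1.32 ± 0.15 and Hoxc8 by 1.15 ± 0.15 (limma adjusted p = 5.9e-06, 6.4e-05 and 0.00018). In mESC Hoxa2 read 5.78 and 6.09, Hoxb2 6.70 and 7.23 and Hoxc8 6.55 and 6.96, all under the lowest d-NSC value of the same gene. Hoxa3 (0.53), Hoxb1 (0.54), Hoxb3 (0.45), Hoxc9 (0.39), Hoxc4 (0.38) and Hoxa4 (0.34) also rose, with limma adjusted p of 0.0022 to 0.041. Hoxc13 fell by 0.85 ± 0.12 (limma adjusted p = 0.00029), while the difference of -0.38 ± 0.16 at Hoxc12 missed the threshold (limma adjusted p = 0.083). Other cell-type markers differed here too: 8 of 11 fibroblast markers were higher and 1 lower (summed level in mESC 11.14 to 11.17, in d-NSC 11.97 to 12.03), 5 of 6 endoderm markers were higher (10.09 to 10.26 and 11.83 to 11.86), and all 6 pluripotency genes were lower. Their part in the result was not tested.

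The smaller of these calls were fragile. Hoxa2, Hoxa3, Hoxb2, Hoxc8 and Hoxc13 passed in d-NSC against mESC under every alternative that tested them. With no variance moderation Hoxa4, Hoxb3, Hoxc4 and Hoxc9 failed. Hoxa4 and Hoxc9 failed without any single one of the 4 arrays (highest adjusted p 0.24 and 0.22), Hoxb3 and Hoxc4 without mESC replicate 1 or either d-NSC array (0.17 and 0.26), and Hoxb1 without mESC replicate 1 or d-NSC replicate 2 (0.092). The count of 10 was 5 without mESC replicate 1, 6 without d-NSC replicate 1, 6 without d-NSC replicate 2 and 6 with no variance moderation.

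The brain-derived CNS-NSC differed from ES cells at few Hox genes. No Hox gene rose against mESC and 2 fell, 5.41% of the members against 43.8% of all genes (21.7% higher and 22.1% lower). Hoxc13 read 6.42 and 6.61, a fall of 0.80 ± 0.12 (limma adjusted p = 0.00034), and Hoxc12 read 6.97 and 6.76, a fall of 0.57 ± 0.16 (limma adjusted p = 0.014). Both genes were below background on both CNS-NSC arrays and above it on both mESC arrays. By limma 3 members had an unadjusted p under 0.05, the third being Hoxa2, at 6.25 and 6.32 in CNS-NSC (difference 0.35 ± 0.13, adjusted p = 0.053). Hoxc12 failed without mESC replicate 1, without CNS-NSC replicate 2 and with no variance moderation. The count was 1 without mESC replicate 1, 1 without CNS-NSC replicate 2 and 4 without mESC replicate 2. Rises appeared in 3 alternatives: Hoxa2 with the replicate number as a block (limma adjusted p = 0.048), Hoxa2 and Hoxb2 without mESC replicate 2 (0.026 and 0.030), and Hoxa10 without CNS-NSC replicate 1 (0.0088).

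The last comparison set the culture-made neural stem cells against those from the brain, d-NSC against CNS-NSC, in the same growth factors. Of the 37 Hox genes 6 were higher in d-NSC, 16.2% against 34.0% of all genes (17.6% higher and 16.5% lower), and none was lower. At an unadjusted p under 0.05 by limma there were 9, of which Hoxa13 was lower (difference -0.29, adjusted p = 0.11). Without CNS-NSC replicate 1, Hoxa10 was lower in d-NSC (limma adjusted p = 0.0029). Hoxa2 was higher by 1.28 ± 0.13, Hoxb2 by 1.18 ± 0.15 and Hoxc8 by 1.13 ± 0.15 (limma adjusted p = 3.5e-05, 0.00016 and 0.00026), and these 3 passed under every alternative that tested them. In CNS-NSC Hoxb2 read 7.07 and 7.13 and Hoxc8 6.76 and 6.80, clear of the d-NSC arrays. Hoxb1, at 7.70 and 7.79 in CNS-NSC, was higher in d-NSC by 0.58 ± 0.14 (limma adjusted p = 0.0085), and failed without d-NSC replicate 2 (0.082).

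Hoxb9, a thoracic gene, was also higher in d-NSC, by a call that rested on 1 array. It read 7.80 and 7.71 in CNS-NSC, the lowest pair of any group, and 8.40 and 8.19 in d-NSC, a difference of 0.54 ± 0.12 (limma adjusted p = 0.0067, and 0.074 without d-NSC replicate 1). Its values in mESC (7.83 and 8.11), p-NSC_L (8.27 and 8.17) and p-NSC_LF (8.27 and 8.32) lay between or beside these, and it passed in no other comparison. Hoxa3 was higher by 0.32 ± 0.10 (limma adjusted p = 0.04) and failed without any single one of the 4 arrays. It also failed with a trended prior and in a fit to the compared groups alone. Fibroblast markers were higher at 7 of 11 in d-NSC and lower at 2, Thy1 and Prrx1 (summed level in CNS-NSC 11.51 to 11.78; 1 was lower without either d-NSC array or CNS-NSC replicate 1), and endoderm markers were higher at 5 of 6 (10.19 to 10.38 in CNS-NSC); their part was not tested. Pluripotency genes were higher in d-NSC at 5 of 6, with Klf4 not passing. Their summed level was 12.61 to 12.66 in d-NSC and 9.78 to 9.79 in CNS-NSC, and their part was not tested either. Strain, origin and medium supplement differ together between these 2 groups and cannot be told apart.

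Over the 6 comparisons, which share arrays, 16 Hox genes passed at least once and 21 never. No share of all genes is given for passing at least once. In single comparisons that share ran from 1.78% to 43.8%, so these counts do not show more change among Hox genes than elsewhere. Of the 16, 10 were above background in at least 1 group, and the other 6 (Hoxa3, Hoxa13, Hoxb13, Hoxc4, Hoxc10 and Hoxc11) in none. By cluster, 4 of 10 HoxA, 5 of 9 HoxB and 7 of 9 HoxC genes passed at least once. None of the 9 HoxD genes did: in their 54 tests by limma the lowest unadjusted p was 0.088, with differences from -0.25 to 0.22. Within HoxD, Hoxd11 read 7.30 to 7.54 and Hoxd9 7.02 to 7.26 over the 10 arrays, around or above background in all groups and nearly level. Hoxd13, of the digits and genitalia, was above background on both arrays in mESC alone, at 7.05 and 7.05, and Hoxd3 in d-NSC alone, at 7.06 and 7.11, with group means only 0.06 and 0.05 over it.

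Hox proteins bind DNA together with Pbx, Meis and Pknox proteins, and 8 of these cofactor genes were measured. From p-NSC_LF to d-NSC 6 of the 8 rose and none fell, with Pbx4 and Pknox1 not passing. Of all genes 19.3% rose and 19.3% fell there. Pbx3 read 8.52 and 8.55 in p-NSC_LF and 11.92 and 11.88 in d-NSC, a rise of 3.37 ± 0.11. Meis1 went from 7.46 and 7.50 to 10.07 and 10.05 (2.58 ± 0.09) and Pknox2 from 7.53 and 7.32 to 10.02 and 9.90 (2.54 ± 0.19). These 3 had limma adjusted p of 3.1e-08, 4.5e-08 and 3.9e-06, and all 6 passed under each alternative that left them in. The same 3 genes were also high in CNS-NSC, where 5 of the 8 rose against mESC and none fell, beside 21.7% and 22.1% of all genes.

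Some cofactors already changed in p-NSC_L against mESC, where 3 of the 8 rose and 1 fell (2 without p-NSC_L replicate 2). Meis2 rose by 2.02 ± 0.15 and Pknox2 by 1.50 ± 0.19, while Pbx3 fell by 1.83 ± 0.11 (limma adjusted p = 5.6e-05, 0.00096 and 2.9e-05). Hoxa2, Hoxb1 and Hoxb2 did not pass in that comparison, where 6.56% of all genes rose and 6.79% fell. Meis2 read 11.75 and 11.69 in d-NSC and 11.59 and 11.15 in CNS-NSC, far above the 6.73 and 6.95 of mESC. Pbx2 read 11.36 and 11.30 in d-NSC and 9.53 and 9.44 in CNS-NSC, a difference of 1.85 ± 0.11 (limma adjusted p = 7.2e-07), so that this cofactor, like Hoxa2, Hoxb2 and Hoxc8, was highest in d-NSC.

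**Figure D4:**
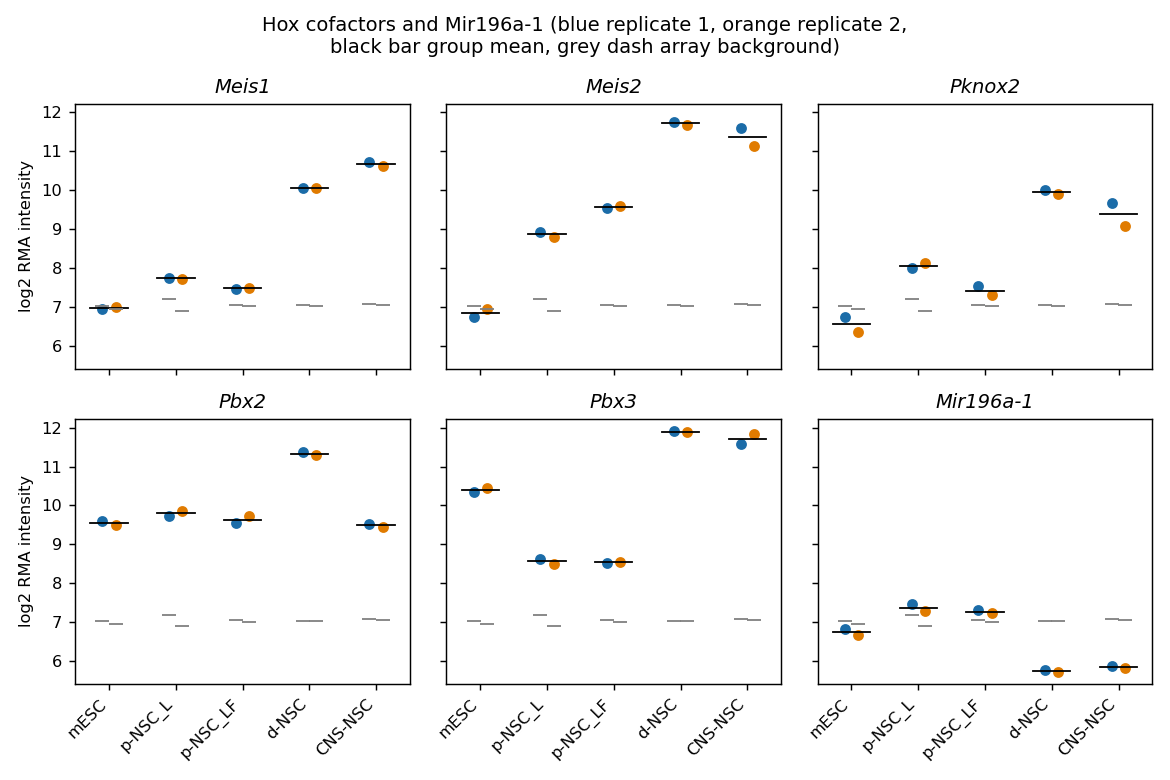
Log2 intensity of 5 Hox cofactor genes and of Mir196a-1, a microRNA gene inside the HoxB cluster, on each array (blue replicate 1, orange replicate 2, black bar the group mean, grey dash the array's background). The cofactors are high in d-NSC, and all but Pbx2 in CNS-NSC too, whereas Mir196a-1 is above background in both p-NSC groups and lowest in d-NSC and CNS-NSC.

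Of the genes that regulate Hox clusters from outside (retinoic acid receptors and enzymes, Cdx factors, Gdf11, Fgf8, Nr6a1 and hindbrain factors), 16 were measured. In d-NSC against p-NSC_LF 7 rose and 2 fell, beside 19.3% of all genes in each direction. Cyp26a1, which breaks down retinoic acid and is itself induced by it, read 6.38 and 6.49 in p-NSC_LF and 9.08 and 9.29 in d-NSC, a rise of 2.75 ± 0.15, and stayed at 6.36 to 6.76 in CNS-NSC. Gdf11, a signal that patterns the trunk-to-tail transition, rose by 1.75 ± 0.12, and Nr6a1, a nuclear receptor of trunk patterning, by 1.71 ± 0.12 (limma adjusted p = 4.5e-07, 1.7e-06 and 2.4e-06 in that order). Cdx2, an activator of central Hox genes, rose by 0.45 ± 0.10 (limma adjusted p = 0.006) to 7.30 and 7.27, just above background. These named changes passed under each alternative that tested them.

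In p-NSC_L against mESC none of the 16 rose and 4 fell, beside 6.56% and 6.79% of all genes. The largest falls were Rarg (-1.40 ± 0.13), Nr6a1 (-1.30 ± 0.12) and Gbx2 (-1.17 ± 0.17), with limma adjusted p of 0.00016, 0.00018 and 0.0017. Egr2, the hindbrain factor that activates Hoxa2 and Hoxb2 in the embryo, rose in CNS-NSC against mESC by 1.99 ± 0.30 (limma adjusted p = 0.00031), from 7.10 and 6.78 to 9.54 and 8.34, although Hoxa2 and Hoxb2 did not pass there. The Polycomb and trithorax list, which keeps Hox clusters silent or active, changed on both sides. In d-NSC against p-NSC_LF 10 of its 19 measured genes rose and 6 fell, beside 19.3% of all genes in each direction. Its largest changes were falls of Eed (-1.48 ± 0.10) and Suz12 (-1.30 ± 0.13), both core parts of the complex that methylates histone H3 at silent Hox genes (limma adjusted p = 1.8e-06 and 2.9e-05). Of the same complex, Ezh2 rose by 0.70 (limma adjusted p = 0.0014) and Ezh1 fell by 0.30 (0.047, lost in 4 of 11 alternatives). The means of Eed and Suz12 were 10.21 and 11.65 in d-NSC and 10.13 and 11.52 in CNS-NSC. The part of these genes in the Hox differences was not tested.

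Genes that mark brain regions anterior to the Hox domain rose in the same cultures as the hindbrain Hox genes. Of 9 measured, 7 rose and none fell in d-NSC against p-NSC_LF, beside 19.3% of all genes in each direction. The largest rises were at En2 (3.17 ± 0.27) and En1 (2.58 ± 0.10), of the midbrain-hindbrain boundary, and Otx1 (2.37 ± 0.13), of the forebrain and midbrain (limma adjusted p = 8.4e-06, 5.1e-08 and 4.9e-07). Otx2, of the forebrain and midbrain, rose by 1.50 ± 0.48 (1.4952 unrounded, limma adjusted p = 0.032, lost without any single one of the 4 arrays), from 10.52 and 10.44 to 11.99 and 11.97. It was higher in d-NSC than in CNS-NSC, at 7.43 and 9.53, by 3.50 ± 0.48 (limma adjusted p = 0.00029). Without p-NSC_LF replicate 2 the count of rises was 4. Whether the same cells held both kinds of marker cannot be read from a culture's pooled RNA.

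Genes beside the clusters, 3 at each end where named, did not follow the Hox pattern as a block. Of 24 neighbours 1 rose and 2 fell in p-NSC_L against mESC, and 4 rose and 6 fell in d-NSC against p-NSC_LF. Of all genes 6.56% rose and 6.79% fell in the first and 19.3% each way in the other. The neighbour counts were near these shares. Without single arrays the rises ran from 0 to 3 (1 or 2 fell) in the first and were 1 or 2 in the other. The 3 neighbours on the Hoxc13 side of HoxC, Calcoco1, Mir688 and Atp5g2, did not pass in p-NSC_L against mESC, where Hoxc12 and Hoxc13 rose. Inside the clusters 10 genes that are no Hox genes had a probe set. Of these Mir10a, Mir10b, Mir196a-2, Mir196b and Mir615, and the non-coding genes Hoxd3os1 and Haglr, passed in no comparison. Hoxaas2 and 5730596B20Rik, both in HoxA, rose in d-NSC against mESC by 0.58 ± 0.15 and 0.43 ± 0.13 (limma adjusted p = 0.012 and 0.021), and 5730596B20Rik also in CNS-NSC against mESC by 0.37 ± 0.13 (0.038). Neither was above background on both arrays of any group. Hoxaas2 lost its call without mESC replicate 1 or d-NSC replicate 1, and 5730596B20Rik its call in d-NSC without mESC replicate 2 or d-NSC replicate 2, and in CNS-NSC without mESC replicate 2 or either CNS-NSC array; quantile normalization ended both calls of 5730596B20Rik.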

How the data were processed

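Total RNA from 10 cultures was extracted with Trizol and labelled with an Ambion whole-transcript kit for Affymetrix arrays, per the labels' protocols. The authors deposited log2 intensities of 35556 probe sets on every array; RMA and Partek are named in the submitters' processing notes, without versions. RMA subtracts background, normalizes between arrays and compresses differences of dim probe sets, which most Hox probe sets are. The log2 base was read from the deposited values (2.07 to 14.74). The array's genome build was not given in the sources used here. With 1 array per sample and 2 per group, the number of arrays limits the precision.

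Probe sets were named through the platform annotation: 21789 had 1 gene symbol, 1621 several and 12146 none here. Only the first were used, with the highest-mean probe set per gene, giving 19938 genes; no value was rescaled. Coordinates and sequences came from RefSeq GRCm38.p6 tables.

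One mean per group was fitted over the 10 arrays with limma 3.58.1 in R 4.3.3 (5 residual and 4.9 prior degrees of freedom), adjusted per comparison by Benjamini-Hochberg, with 0.05 as threshold, and tested on simulated data. Intervals are 95%. Tables and plots used matplotlib 3.10.9 and pandas 2.3.3 under Python 3.11.15. A summed level is log2 of the sum of the linear intensities of a list. Every Hox gene above background in a group or called in a comparison is described. Of the other lists (cofactors, regulators, Polycomb and trithorax, anterior brain, neighbours), up to 3 called genes with the largest difference per comparison are named. Named besides these are Otx2, Gbx2, Egr2, Cdx2, Ezh1, Ezh2 and Hprt. Some genes of these families and lists are not reported here. The members, the lists and the background rule were chosen with earlier results of these data known. Alternatives were quantile normalization, leaving out the dimmer 50% of genes, a trended prior, no variance moderation, the replicate number as a blocking factor, a fit to the compared groups alone, the mean over a gene's probe sets, other background references, and leaving out each array.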

Additional observations from a re-analysis of the deposited data

Results flagged for a closer look

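Mir196a-1, a microRNA gene that lies inside the HoxB cluster beside Hoxb9, carried a signal outside the Hox gene comparisons, and was chosen after its values were seen. Its mature product and that of Mir196b, inside HoxA, share the seed shown in capitals (bases 2 to 8; RefSeq, GRCm38.p6), and miR-196 is known to target Hoxb8 and other Hox messages. The mature miR-196a-5p of Mir196a-1 is at chr11:96265187-96265208 on the plus strand, and miR-196b-5p at chr6:52230129-52230150 on the minus strand.

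miR-196a-5p: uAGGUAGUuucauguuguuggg
miR-196b-5p: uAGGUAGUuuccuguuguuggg

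The Mir196a-1 probe set read 6.83 and 6.66 in mESC, 7.46 and 7.28 in p-NSC_L, 7.30 and 7.23 in p-NSC_LF, 5.78 and 5.73 in d-NSC and 5.88 and 5.83 in CNS-NSC. It was above background on both arrays of the 2 p-NSC groups and on no other array, and the groups at either end did not overlap. The rise in p-NSC_L against mESC was 0.62 ± 0.11 (0.6185 unrounded, limma adjusted p = 0.005), and it missed the threshold without mESC replicate 2 (adjusted p = 0.054). It fell by 1.51 ± 0.11 from p-NSC_LF to d-NSC (limma adjusted p = 2.6e-06). Hoxc12 and Hoxc13, on another chromosome, are high and low in the same groups, whereas the nearest HoxB gene measured, Hoxb9, read 8.19 to 8.40 in d-NSC. Mir196a-2, in HoxC with the same mature sequence, read 5.48 to 6.10 on all arrays. Whether these probes read the precursor, the mature product or a longer transcript was not tested.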

How the results depend on the processing

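Of 33 gene results that passed, run under 333 alternatives, 269 kept direction and call, 64 lost the call and 0 reversed; 17 kept the call throughout. Without one array at a time, counts of Hox genes called ran from 0 to 1 in p-NSC_LF against p-NSC_L, 6 to 8 in d-NSC against p-NSC_LF, 5 to 11 in d-NSC against mESC and 1 to 4 in CNS-NSC against mESC. Leaving out the dimmer 50% of genes left 2 Hox genes to test, with 0, 0, 1, 2, 0 and 1 called in the order of the comparisons above. Without variance moderation the counts were 8 in d-NSC against p-NSC_LF, 6 in d-NSC against mESC and 1 in CNS-NSC against mESC; quantile normalization gave 1 in p-NSC_LF against p-NSC_L, and 6 higher and 3 lower in d-NSC against mESC. Other causes were not tested.

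Above background at the 99th percentile of olfactory receptor genes were 4, 6, 6, 6 and 3 Hox genes (mESC, p-NSC_L, p-NSC_LF, d-NSC, CNS-NSC). At the 95th percentile of vomeronasal receptor genes there were 27, 28, 30, 34 and 24, and over the median of all genes 0, 3, 5, 5 and 2. No share of all genes is given for the olfactory 99th and vomeronasal 95th percentiles. In the fit with a replicate block the counts called were 2, 0, 13, 10, 3 and 6. The block added a rise of Hoxa2 in CNS-NSC against mESC. Over 10 group pairs the correlation of same-numbered deviations ran from -0.11 to 0.38: it was over 0.1 in the 6 pairs without d-NSC and in none of the 4 with it, so the numbers were not taken to pair the samples throughout. Signal near background limits most of the Hox genes.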
